A study of Pimephales promelas with 80 samples.

Results

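A set of 77 genes stood lower in whole larvae of the fathead minnow at the upper doses of 6PPD, 0.848 and 2.68 mg/L, than in unexposed larvae. They were chosen by their measured values, out of 18486 genes with at least 10 counts in every control and 26150 genes in the table. The scale of the choice was log2(CPM + 1), where CPM is the count of a gene scaled to a common total of counts in genes (counts per 1 M). A gene was selected when its mean difference from controls was at most -1 at 2.68 mg/L of 6PPD, at most -0.4 at 0.848 mg/L of 6PPD and under 0.4 at 8.78 mg/L of 6PPD-Q, and when all 5 fish at 2.68 mg/L lay below the lowest control. The falls at these doses are therefore a description of the choice and not a finding. The 55 fish at the other doses took no part in it.

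The fathead minnow (Pimephales promelas) is a small freshwater fish of toxicity testing. 6PPD protects tire rubber against ozone and oxygen, and its quinone, 6PPD-Q, forms when it reacts with ozone. The quinone is known for killing coho salmon at low concentrations, while several other fish species tolerate it, and the series asks what both chemicals do to the transcriptome of a fish species other than salmon. Whole-larva RNA mixes all tissues, so a lower level in such a sample can come from fewer cells of a type or from less RNA per cell, and these cannot be told apart.

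Exposed fish received 6PPD at 0.00848, 0.0268, 0.0848, 0.268, 0.848 or 2.68 mg/L, or 6PPD-Q at 0.00277, 0.00878, 0.0277, 0.0878, 0.277, 0.878, 2.77 or 8.78 mg/L, with 5 fish at each dose, and 10 control fish received neither. All wells held 0.3% DMSO, and every larva, controls included, went unfed for the 24 hours of exposure. The larvae were 5 days old, with hatching or fertilization as the start, depending on the label. They came from several crosses, were pooled and sorted at random, and each library is 1 whole fish. Control replicates 1 and 2 and replicate 1 at 2.68 mg/L of 6PPD carry the letter A in their library names. The other 77 libraries carry the letter C, and the letters are read here as plates.

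Libraries held 16.2 to 36.6 M counts in genes (M, the prefix mega; median 20.3 M), with 16.8 to 26.1 M at 2.68 mg/L of 6PPD, 19.4 to 20.9 M at 0.848 mg/L and 16.2 to 21.7 M in controls. The identifiers of the files are paired with no gene names, and 0 of 26150 matched the RefSeq table at hand. No roles can be given for the genes, and the whole-body label could not be checked against marker genes. FMg007996 and FMg017448, the genes with the largest and the second largest fall at 2.68 mg/L on the log2(CPM + 1) scale, are named by identifier. The others are given by their rank in that order, which depends on the scale. CPM does not correct for gene length, so levels are compared between fish and not between genes.

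The 77 genes together took 0.0853% ± 0.0287 of all counts in genes at 2.68 mg/L of 6PPD and 0.198% ± 0.0280 at 0.848 mg/L, against 0.305% ± 0.0273 in the control fish (SD, n = 5, 5 and 10). With 8.78 mg/L of 6PPD-Q this share was 0.258% ± 0.0322 (SD, n = 5). At the lower doses the mean share lay between 0.287% and 0.303% with 6PPD and between 0.261% and 0.313% with 6PPD-Q.

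In each fish, the median over the 77 genes of the difference from the control mean was taken on the log2(CPM + 1) scale. It was -1.97, -1.49, -1.51, -0.99 and -1.43 in replicates 1 to 5 at 2.68 mg/L of 6PPD. Those at 0.848 mg/L were -0.93, -0.57, -0.44, -0.43 and -0.57, against a range of -0.23 to 0.23 over the 10 controls. Replicate 1 was the lowest fish of both upper dose groups, and the highest fish at 2.68 mg/L lay just under the lowest at 0.848 mg/L. Over all 18486 genes the same median averaged between -0.06 and 0.01 in every dose group.

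**Figure D1:**
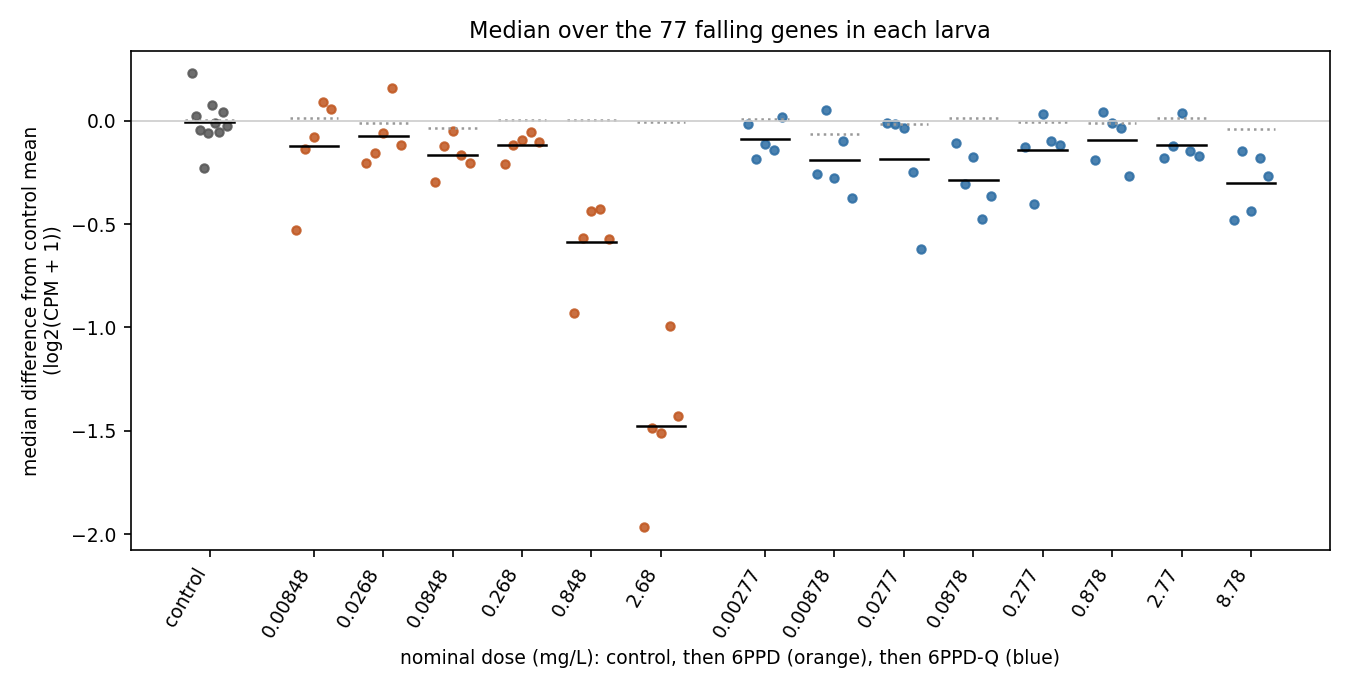
Median difference from the control mean over the 77 genes (log2(CPM + 1), vertical axis) in each of 80 larvae, by nominal dose in mg/L (horizontal axis), with the control group at the left of the 6PPD and 6PPD-Q series. Points are single fish, solid bars are group means, and dotted bars are group means of the same median over all 18486 eligible genes. The 5 fish at 2.68 mg/L of 6PPD lie between -1.97 and -0.99 and the 10 controls between -0.23 and 0.23.

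Single genes fell by very different amounts. The mean difference from controls at 2.68 mg/L ranged from -4.52 to -1.004 over the 77 genes (median -1.48), with 15 genes at or under -2 and 40 above -1.5. At 0.848 mg/L it ranged from -1.65 to -0.40 (median -0.59). The fall at 0.848 mg/L was between 14.1% and 68.3% of the fall at 2.68 mg/L on this log2 scale (median 39.6%). In 22 of 77 genes all 5 fish at 2.68 mg/L lay below all 5 fish at 0.848 mg/L, against 1.91% of the eligible genes. Both groups of fish entered the choice, so this count is a description.

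The choice placed all 5 fish at 2.68 mg/L below the lowest control in every one of the 77 genes, as in 3.0% of the eligible genes. This held at 0.848 mg/L for 10 of 77 genes and for 0.184% of the eligible genes. The fit by edgeR called 77 genes lower at 2.68 mg/L (9.72% of all 21599 tested genes) and 12 lower at 0.848 mg/L (0.13%), and all 77 had passed its filter on low counts. These counts come from the fish that chose the genes and carry no weight of their own. Leaving out replicate 5 turned the 12 into 6, and there were 19 when these fish and the controls were fitted alone.

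Some genes lay close to a limit of the choice. The smallest fall that was kept at 2.68 mg/L was -1.0039 and the largest that was left out for that reason alone was -0.9984, with 31 such genes. The values for 0.848 mg/L were -0.4013 and -0.3984, with 81 genes left out for it alone. Another 69 genes failed only because a fish at 2.68 mg/L overlapped the controls, 3 only through their level at 8.78 mg/L of 6PPD-Q, and 0 only through the count minimum.

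FMg007996 had the largest fall on the log2(CPM + 1) scale. It stood at 1.90, 1.60, 1.79, 6.09 and 2.22 CPM in the 5 fish at 2.68 mg/L of 6PPD and at 18.9, 23.8, 25.8, 47.2 and 28.4 CPM at 0.848 mg/L, against 59.8 to 99.3 CPM in controls (lowest to highest, median 82.8). The 3 groups did not overlap, and replicate 4 was the highest fish at both upper doses. The mean at 2.68 mg/L was 3.44% of the control mean, with 27 to 119 counts per fish, and at 0.848 mg/L 36.5% of it. The differences from controls were -4.52 and -1.47 on the log2(CPM + 1) scale.

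No such fall of FMg007996 was seen at the next lower dose of 6PPD or with the quinone. It held 73.5, 88.3, 71.0, 117 and 83.8 CPM in the fish at 0.268 mg/L of 6PPD, which is within the control range or above it. The quinone gave 45.6, 86.1, 105, 78.0 and 87.8 CPM at 2.77 mg/L and 59.4, 49.98, 60.1, 85.7 and 53.2 CPM at 8.78 mg/L. At 8.78 mg/L 3 of 5 fish lay below the lowest control, and the mean difference was -0.36. None of the 55 fish at the other doses was as low as the highest fish at 2.68 mg/L of 6PPD.

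FMg017448, second in order of fall, was a gene of wide spread between fish. The fish at 2.68 mg/L of 6PPD had 0.146, 0.654, 0.264, 1.18 and 0.115 CPM, which is 3 to 23 counts. The 0.848 mg/L fish had 2.37, 2.34, 6.47, 14.4 and 6.14 CPM, against 5.72 to 41.1 CPM in controls (median 10.8). The fish at 2.68 mg/L lay below all others of these 3 groups, while those at 0.848 mg/L overlapped the controls. The differences from controls were -3.39 and -1.27 on the log2(CPM + 1) scale, where the added 1 shrinks falls that end at few CPM. As a share of the control mean FMg017448 was lower at 2.68 mg/L than FMg007996, at 2.79% against 3.44%. By edgeR the log2 fold changes there were -5.19 for FMg017448 and -4.84 for FMg007996. With the quinone the gene averaged 14.6 ± 2.66 CPM at 8.78 mg/L (SD, n = 5), and single fish at 0.0878 mg/L ranged from 0.906 to 87.0 CPM, and 1 of the 55 fish outside the choice was as low as the fish at 2.68 mg/L of 6PPD.

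**Figure D2:**
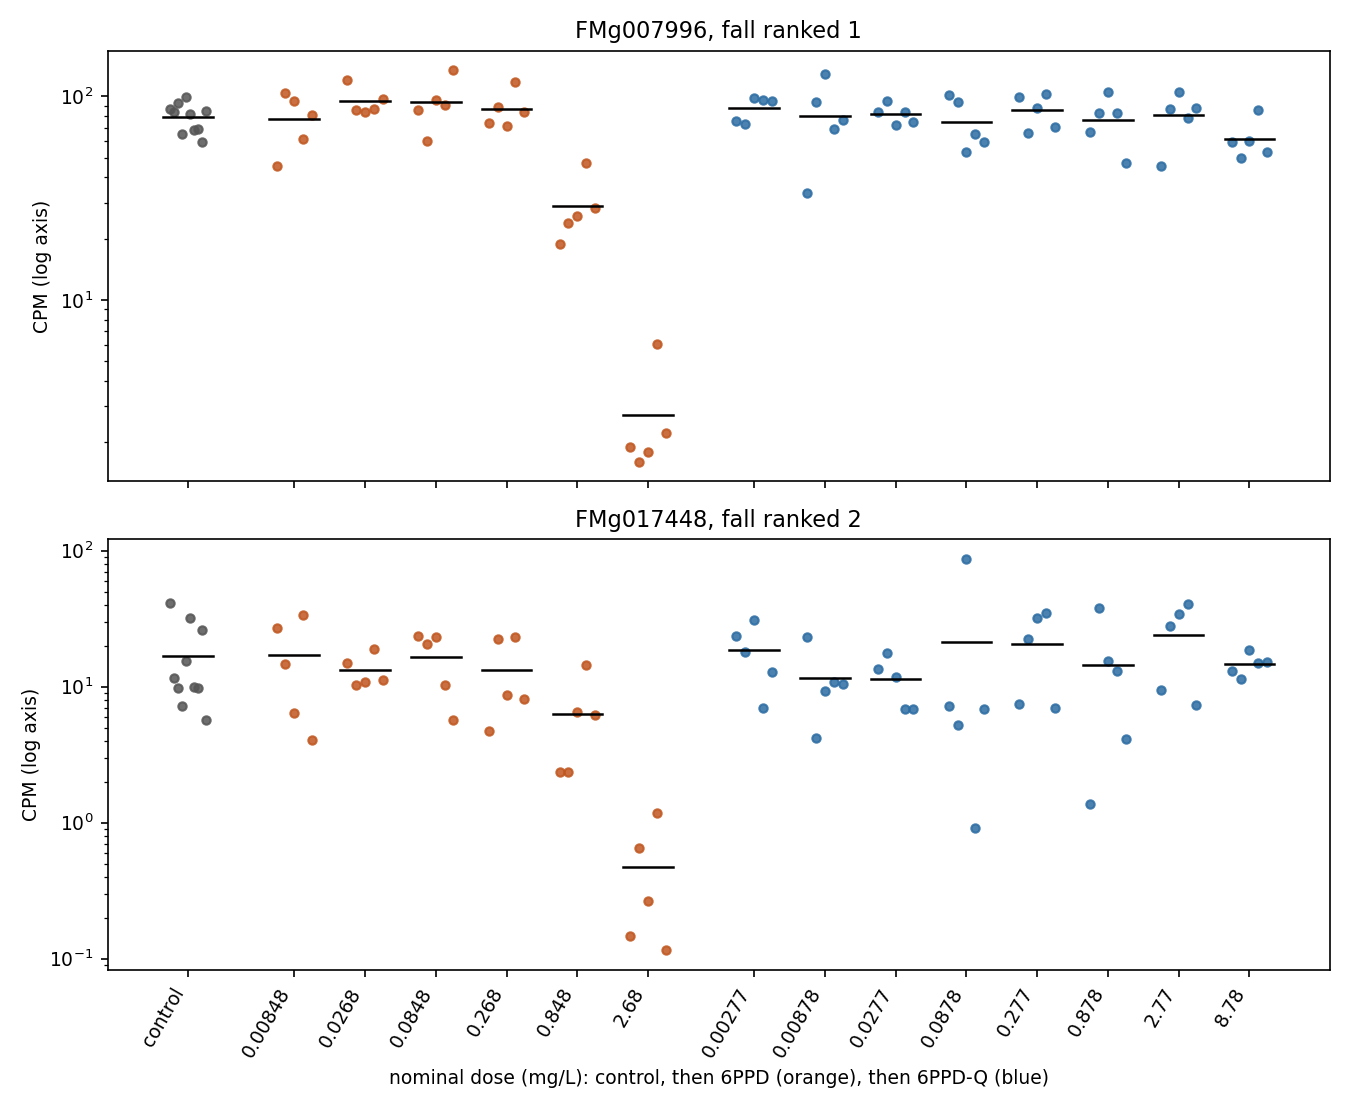
CPM (log axis) of FMg007996 and FMg017448, the genes with the largest and the second largest fall, in each of 80 larvae by nominal dose in mg/L; bars are group means. FMg007996 lies between 1.60 and 6.09 CPM at 2.68 mg/L of 6PPD and between 59.8 and 99.3 CPM in controls, and FMg017448 varies far more between fish.

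The genes of ranks 3 to 10 showed different forms of the fall. The gene of rank 3 had 13.8, 17.6, 39.3, 45.1 and 17.0 CPM at 2.68 mg/L and 141, 198, 227, 154 and 211 CPM at 0.848 mg/L, against 213 to 362 CPM in controls (median 251). Most of its fall lay between these doses. It was at 10.3% of the control mean at 2.68 mg/L and at 72.1% at 0.848 mg/L. Rank 8 had the same form, at 17.5% and 71.4% of the control mean.

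The gene of rank 5 had the largest fall at 0.848 mg/L on the log2(CPM + 1) scale. It had 3.75, 2.44, 2.78, 5.43 and 3.47 CPM there and 0.342, 1.37, 0.897, 0.921 and 1.07 CPM at 2.68 mg/L, against 5.46 to 19.6 CPM in controls (median 14.4). All 3 groups were apart, although the highest fish at 0.848 mg/L and the lowest control nearly touched. Its means were 26.0% and 6.70% of the control mean at 0.848 and 2.68 mg/L, with 7 to 28 counts per fish at 2.68 mg/L. This gene was lower than in controls at all 11 other doses as well, by 0.27 to 1.16 on the log2(CPM + 1) scale.

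The gene of rank 9 varied little between fish. It stood at 4.54, 6.00, 4.54, 5.88 and 4.78 CPM at 2.68 mg/L and at 14.3, 16.6, 14.8, 20.1 and 12.0 CPM at 0.848 mg/L, against 27.9 to 41.7 CPM in controls (median 33.7). The 3 groups were far apart, and none of the 55 fish at the other doses came down to the level of 2.68 mg/L. The quinone at 8.78 mg/L gave 20.5, 30.6, 21.9, 27.3 and 17.9 CPM, with 4 of 5 fish below the lowest control.

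The genes of ranks 4 and 7 varied widely between fish. Rank 4 had 0.146, 1.01, 0.211, 0.716 and 0.459 CPM at 2.68 mg/L (3 to 17 counts), against 4.34 to 23.0 CPM in controls. On the log2(CPM + 1) scale its mean was below that of controls at every other dose of both chemicals, while in CPM it averaged 15.1 at 0.0878 mg/L of 6PPD-Q, against 13.9 in controls. Rank 7 had 0.977, 2.02, 5.01, 7.32 and 2.60 CPM at 2.68 mg/L, against 7.38 to 54.6 CPM in controls. Of the 55 fish at other doses, 14 were as low as its highest fish at 2.68 mg/L. On the log2(CPM + 1) scale rank 7 differed from controls by -1.27 at 0.848 mg/L of 6PPD and by -1.05 to -0.96 at the 4 lower doses. At the 7 lower doses of 6PPD-Q it differed by -1.39 to 0.02. Rank 4 differed by -0.59 at 0.848 mg/L of 6PPD and by -1.21 to -0.86 at the 4 lower doses.

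In the genes of ranks 6 and 10 at least 1 fish at 2.68 mg/L stayed near the controls. The gene of rank 6 had 2.93, 5.23, 7.38, 22.0 and 4.28 CPM, against 22.6 to 74.5 CPM in controls, so replicate 4 lay just under the lowest control. Rank 10 had 4.49, 3.15, 11.1, 1.43 and 15.3 CPM, against 17.4 to 44.3 CPM, and here replicates 3 and 5 were the high fish and replicate 4 the lowest. Replicate 4 was thus the highest fish in one of these genes and the lowest in the other.

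The 5 members of highest CPM in controls are those of ranks 15, 3, 40, 8 and 14. The gene of rank 15 had 60.6, 83.4, 175, 209 and 140 CPM at 2.68 mg/L and 218, 359, 339, 362 and 401 CPM at 0.848 mg/L, against 408 to 726 CPM in controls (median 493.5). Both exposed groups lay below every control, at 25.6% and 64.3% of the control mean. Rank 40 kept 39.3% and rank 14 26.6% of the control mean at 2.68 mg/L.

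The quinone was set against 6PPD at the nearest doses. At 2.77 mg/L of 6PPD-Q the per-fish median was between -0.18 and 0.04, against -1.97 to -0.99 at 2.68 mg/L of 6PPD. In 64 of 77 genes all fish at 2.68 mg/L of 6PPD lay below all fish at 2.77 mg/L of 6PPD-Q (6.15% of eligible genes), and edgeR called 74 of 77 higher with the quinone (8.7% of tested genes). At 0.878 mg/L of 6PPD-Q against 0.848 mg/L of 6PPD these counts were 5 of 77 (0.303%) and 5 of 77 (0.0509%). Between 2.68 and 0.848 mg/L of 6PPD edgeR called 50 of 77 lower at the higher dose (2.64%), against 33 when replicate 1 of the higher dose was left out and 23 when both groups were fitted alone. The paired doses differ slightly in mg/L. The 6PPD fish are those of the choice. The counts of genes without overlap and the edgeR calls in these comparisons therefore only describe the choice and support nothing.

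The dose of 8.78 mg/L of 6PPD-Q entered the choice through an upper limit of 0.4, and the choice also used the controls it is set against. At this dose the mean difference ranged from -1.09 to 0.40 over the 77 genes (median -0.37). It was at or under -0.4 in 37 genes and above 0 in 11. The per-fish medians were -0.48, -0.15, -0.44, -0.18 and -0.27, so replicates 1, 3 and 5 lay below the lowest control and replicates 2 and 4 within the control range. All 5 fish were below the lowest control in 2 of 77 genes (0.2% of eligible genes). Of the 77, edgeR called 0 at an adjusted p under 0.05 (0.0417% of tested genes lower), limma 2 (0.347% of its genes in either direction) and DESeq2 4 (0.671%). At an unadjusted p under 0.05 edgeR had 21 of 77 lower and 0 higher, against 13.5% of all tested genes in either direction. By edgeR the 0 became 4 when replicate 2 was left out, 3 without replicate 4 and 1 without control replicate 3 or 8. The limit of 0.4 and the shared controls can both favour lower values in the chosen genes. These counts are therefore a description and not a finding.

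The doses below 0.848 mg/L of 6PPD and below 8.78 mg/L of 6PPD-Q were outside the choice, but they were set against the same controls, which the choice also used. Against controls the median log2 fold change of the 77 genes by edgeR was -0.07, -0.09, -0.09 and -0.11 at 0.00848, 0.0268, 0.0848 and 0.268 mg/L of 6PPD. It was -0.10, -0.11, -0.21, -0.22, -0.14, -0.08 and -0.14 from the lowest to the seventh dose of 6PPD-Q, and between -0.004 and 0.013 over all tested genes at these 11 doses. The 6PPD medians went from -0.07 at 0.00848 mg/L to -0.11 at 0.268 mg/L by edgeR. On the log2(CPM + 1) scale the median differences at these 4 doses were -0.12, -0.11, -0.14 and -0.13, in no order of dose. The edgeR medians of 6PPD-Q followed no order of dose either. For a slope over these 6PPD doses 0 of 77 genes were called, as given below. Of the 77 genes, 15 (19.5%) had a mean log2(CPM + 1) below that of controls at all 11 doses and 1, the gene of rank 12, a mean above it at all 11, against 4.93% and 2.72% of the eligible genes. The choice can favour genes that were high in these controls, and so lower values at every dose. The medians and shares against controls are therefore a description and not a finding.

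No member was called at any of these 11 doses, by edgeR, limma or DESeq2, and 1 was called at 0.00878 mg/L of 6PPD-Q by edgeR when replicate 2 there was left out. All 5 fish lay below the lowest control in 1 of 77 genes at 0.0848 mg/L of 6PPD (0.0703% of eligible genes), in 1 at 0.0878 mg/L of 6PPD-Q (0.141%) and in 0 at the other doses. There the shares of eligible genes were 0.0216%, 0.0108% and 0.0325% at 0.00848, 0.0268 and 0.268 mg/L of 6PPD. With 6PPD-Q they were 0.0703%, 0.157%, 0.0595%, 0.027%, 0.0108% and 0.151% at 0.00277, 0.00878, 0.0277, 0.277, 0.878 and 2.77 mg/L.

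At an adjusted p under 0.05 edgeR called 0.00926%, 0.0%, 0.0% and 0.0% of all tested genes at the 4 lower doses of 6PPD, and 0.00463%, 0.037%, 0.0%, 0.102%, 0.00463%, 0.00463% and 0.0139% at the 7 lower doses of 6PPD-Q. At an unadjusted p under 0.05 it had 3, 0, 5 and 2 of the 77 genes with 6PPD, against 3.42%, 1.66%, 4.58% and 3.52% of all tested genes. With 6PPD-Q it had 2, 11, 3, 14, 5, 5 and 6 of 77, against 3.12%, 9.88%, 4.48%, 10.3%, 2.31%, 3.22% and 6.72%. The 14 genes at 0.0878 mg/L of 6PPD-Q were all lower than in controls, and 11 at 0.00878 mg/L were 6 lower and 5 higher. These counts share the controls of the choice and are likewise a description.

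**Figure D3:**
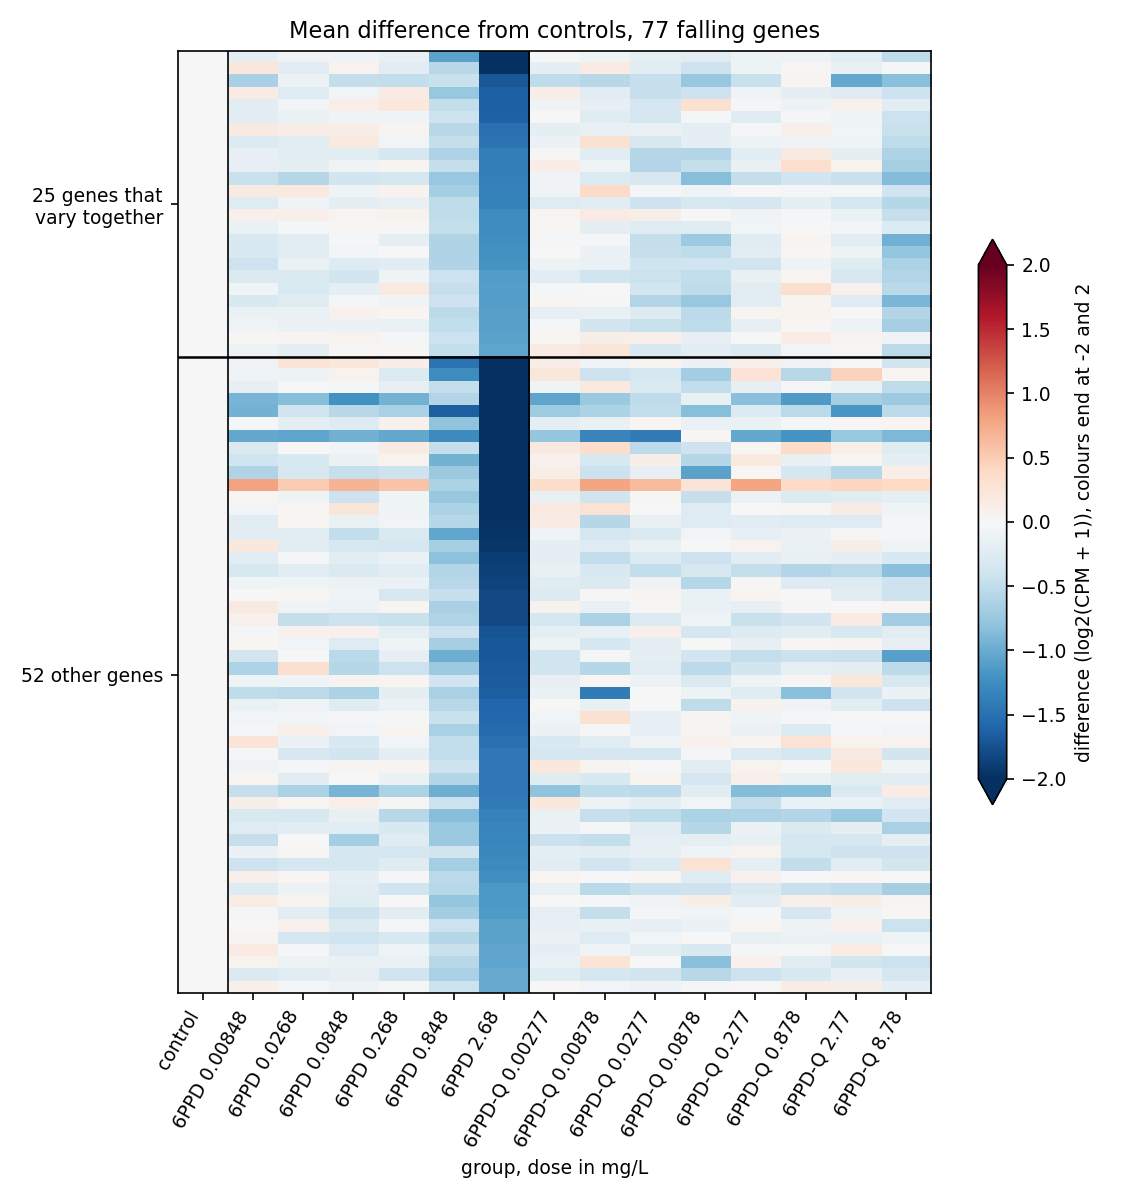
Mean difference from controls (log2(CPM + 1), colour, blue lower and red higher, colours ending at -2 and 2) for the 77 genes in rows and the control group followed by the 6PPD and 6PPD-Q doses in mg/L in columns. The upper block holds the 25 genes that vary together between fish and the lower block the 52 others, each ordered by the fall at 2.68 mg/L. The columns of 0.848 and 2.68 mg/L of 6PPD are blue throughout, as the choice requires. At 8.78 mg/L of 6PPD-Q 21 of the 25 but 16 of the 52 are at or under -0.4, against 6.2% of eligible genes.

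Comparisons among the 55 fish outside the choice rest on group means that took no part in it. The spread used by the tests came from all 80 libraries, those of the choice included. Each library is a separate fish, but the comparisons reuse the same fish and come from 1 fit, so they are not independent of each other. Over the 4 lower doses of 6PPD the slope on dose level had a median of -0.01 log2 units per dose level over the 77 genes, with a range of -0.19 to 0.16. At an adjusted p under 0.05 edgeR called 0 of 77 (0.0% of tested genes), limma and DESeq2 0 each, and at an unadjusted p under 0.05 edgeR had 1 of 77 (3.38%). Over the 7 lower doses of 6PPD-Q the slopes ranged from -0.10 to 0.08, with a median under 0.01 in size. Again 0 of 77 were called by edgeR (0.0139% of tested genes), limma and DESeq2, with 4 of 77 at an unadjusted p under 0.05 (4.65%).

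No difference between the next lower dose of 6PPD and the doses below it passed the test. At 0.268 mg/L against 0.00848, 0.0268 and 0.0848 mg/L the log2 fold changes ranged from -0.34 to 0.37 (median -0.01), with 0 of 77 called by edgeR (0.0% of tested genes), limma and DESeq2, and 1 of 77 at an unadjusted p under 0.05 (2.69%). In 26 of the 77 genes the 95% interval of the edgeR log2 fold change lay above -0.4. In the other genes it reached to -0.4 or beyond. The choice used -0.4 at 0.848 mg/L for differences from controls on the log2(CPM + 1) scale. Scale and reference differ here, so this is not the same limit. For FMg007996 the log2 fold change was -0.05 (95% interval -0.46 to 0.37, edgeR adjusted p = 1.0) and for FMg017448 -0.24 (-1.33 to 0.85, edgeR adjusted p = 1.0).

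With 2.77 mg/L of 6PPD-Q against its 4 lowest doses the log2 fold changes ranged from -0.64 to 0.61, with a median of 0.00. By edgeR 0 of 77 were called (0.0509% of tested genes), likewise by limma and DESeq2, and 2 of 77 were at an unadjusted p under 0.05 (4.66%). The 95% interval of the edgeR log2 fold change lay above -0.4 in 29 of 77 genes, again not the same limit as that of the choice. The values of FMg007996 and FMg017448 were -0.05 (95% interval -0.45 to 0.36) and 0.61 (-0.39 to 1.61), with edgeR adjusted p = 0.982 for the first and 0.940 for the second.

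The chemicals were set against each other at 4 pairs of nearest lower doses. At 0.00878 mg/L of 6PPD-Q against 0.00848 mg/L of 6PPD the median log2 fold change of the 77 genes was 0.05, and at 0.0277 against 0.0268 mg/L it was -0.11. At 0.0878 against 0.0848 mg/L it was -0.18, and at 0.277 against 0.268 mg/L it was -0.02. In order of dose edgeR called 0 of 77 at each, with 0.00926%, 0.0%, 0.125% and 0.00463% of tested genes, and limma and DESeq2 called 0 as well. At an unadjusted p under 0.05 there were 5, 0, 11 and 2 of 77, against 7.78%, 1.66%, 15% and 2.2% of tested genes. The lowest and the third pair had 1 of 77 called when 6PPD-Q replicate 2 or 6PPD-Q replicate 1, in that order of pairs, was left out. The median of the lowest pair turned to -0.09 when replicate 1 of the 6PPD dose was left out.

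The 77 genes did not vary between fish as 1 unit. Each gene's deviations from its group means were correlated over the 55 fish outside the choice, and average linkage, split at a distance (1 minus the correlation) of 0.6, gave a group of 25 genes. Their mean pairwise correlation was 0.54, against 0.08 among the 52 others, 0.13 among all 77 and 0.03 among the 18486 eligible genes. Genes that fell at 2.68 mg/L alone had 0.09 (81 genes), and those that rose at both upper doses had 0.08 (103 genes). The 25 genes were picked by these correlations, so their value is a description. The 10 controls and the 10 fish at 0.848 and 2.68 mg/L of 6PPD helped choose the 77 genes but not the 25 among them. In the controls and the exposed fish the mean pairwise correlation of the 25 was 0.33 and 0.52, against 0.13 and 0.24 for the 52. For the eligible genes it was 0.025 and 0.026. These values are therefore also a description.

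The group of 25 holds the gene of rank 9, the gene of rank 14 and the gene of rank 40, and none of the first 8. Its mean differences at 2.68 mg/L ranged from -2.49 to -1.06 (median -1.35), those of the 52 others from -4.52 to -1.004 (median -1.67). At 8.78 mg/L of 6PPD-Q the order was reversed, with a median of -0.54 for the 25 and -0.21 for the 52. The difference was at or under -0.4 in 21 of the 25 and 16 of the 52, against 6.2% of eligible genes. The 25 vary together, so these are not 25 separate results. In replicates 1 to 5 at this dose the median of the 25 was -1.06, -0.34, -0.87, -0.24 and -0.27. At the 7 lower doses of 6PPD-Q the median of their mean differences lay between -0.41 (0.0878 mg/L) and 0.02 (0.878 mg/L). The contrasts between the 25 and the 52 were not tested, since both groups of genes were drawn after values were seen.

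The 25 genes were also low in single fish at doses far below the upper ones. Their median difference from controls was -1.24 in replicate 5 at 0.0277 mg/L of 6PPD-Q, -1.13 in replicate 4 at 0.0878 mg/L of 6PPD-Q and -1.04 in replicate 1 at 0.00848 mg/L of 6PPD. In these fish the 52 others stood at -0.45, -0.25 and -0.27, and 40, 39 and 40 of the 77 genes lay below the lowest control. Of the eligible genes, 23.3%, 17.2% and 15.1% lay below it in the same fish. The other fish of these 3 groups did not all share it: the group medians were 0.03, -0.52 and 0.06. Without these 3 fish the mean correlation of the 25 was 0.40. All 3 are among the fish whose deviations grouped the 25 genes, so their low values describe that grouping.

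Over the 55 fish, 3 were at or below the highest fish at 2.68 mg/L of 6PPD in the median of the 25 genes, and 15 at or below the highest at 0.848 mg/L. In the median of the 52 others 0 and 1 were. For single genes, 26 of 77 had none of the 55 fish as low as the highest fish at 2.68 mg/L, 5 of the 25 and 21 of the 52. The share of eligible genes without such a fish is not given, so these counts cannot be judged against it. The number of such fish was at most 25 of 55 in the 25 genes (median 5) and at most 21 in the 52 (median 1). The 25 genes were grouped by their shared deviations in these same 55 fish, so these counts are a description and were not tested.

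**Figure D4:**
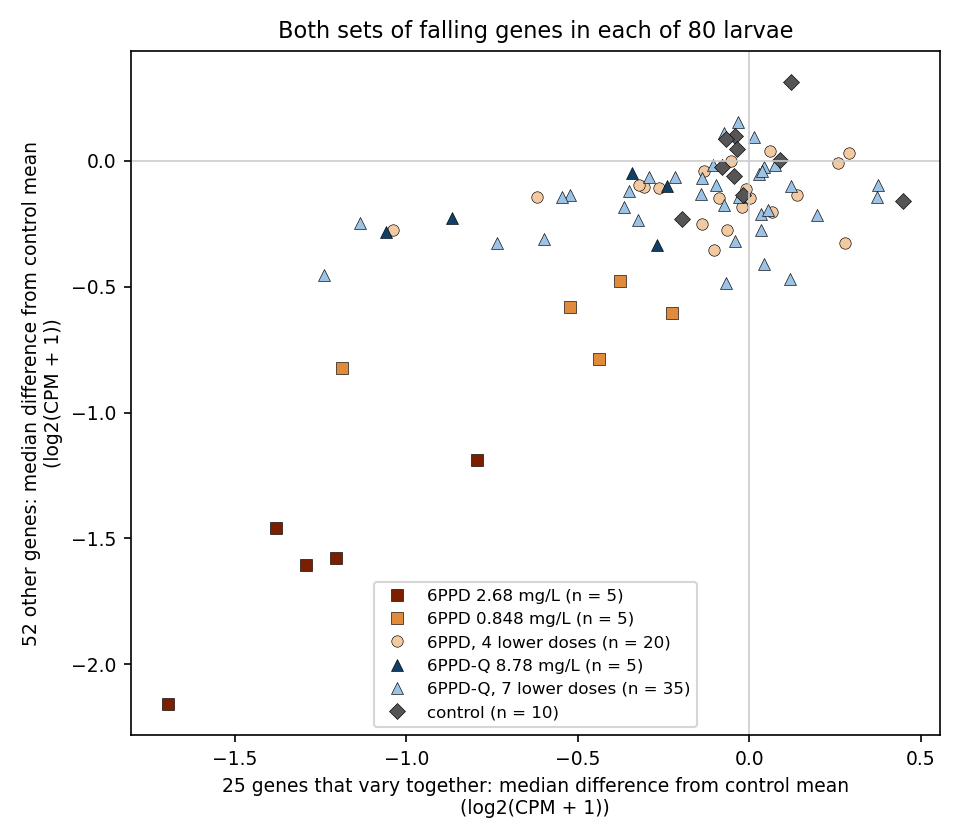
Median difference from the control mean over the 52 other genes (vertical axis) against that over the 25 genes that vary together (horizontal axis), both on the log2(CPM + 1) scale, in each of 80 larvae. The 5 fish at 2.68 mg/L of 6PPD are low on both axes, between -1.70 and -0.79 for the 25 and between -2.16 and -1.19 for the 52, while 3 fish of lower doses are at -1.24 to -1.04 for the 25 and above -0.46 for the 52.

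Deviations of these medians and of library measures from their dose group means were correlated over the 55 fish. The median of the 25 had a correlation of 0.02 with the share of reads outside genes. It was -0.05 with the number of genes detected and 0.06 with the counts in genes. For the median of the 52 these were 0.61, 0.31 and -0.09, and that of the 25 with the 52 was 0.34. The medians of all fish share the same control means, so these are descriptions. The correlation with reads outside genes was not computed for the median over all eligible genes. The 0.61 can therefore not be read as particular to the 52. Among the 55 fish, replicates 3 and 5 of the 0.00878 mg/L quinone group had the lowest shares outside genes, 7.73% and 8.19%. Their medians over all eligible genes were -0.16 and -0.13. The highest shares were 13.5% and 13.4%, in replicate 3 of the 0.0878 and 2.77 mg/L quinone groups, with medians of 0.01 and 0.08. Reads outside genes took 9.74% to 11.9% at 2.68 mg/L of 6PPD (mean 10.4%) and 9.88% to 11.1% at 0.848 mg/L (mean 10.4%), against 9.25% to 11.7% in controls (mean 10.4%). The group ranges overlapped at both upper doses. The part of these reads in the levels of the 52 genes at other doses was not tested.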

How the data were processed

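RNA of 80 single whole larvae was prepared, per the labels, with a Lexogen SENSE mRNA library kit. The authors deposited raw counts per gene, which are whole numbers. The submitters' processing notes name bcl2fastq 2.20.0, FastQC, Trim Galore 0.6.6, MultiQC 1.12, STAR 2.7.10a, SAMtools 1.13, HTSeq 0.13.5 and edgeR. The build, annotation and strand setting were not stated in what was read here. Neither deposited table of log2 values was used. The 5 lines of the count table that name no gene were left out: reads outside genes were 7.73% to 13.5%, ambiguous reads 4.48% to 6.02% and multiply aligned reads 5.68% to 9.76%.

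The 77 genes were chosen on log2(CPM + 1) values with the column sum as depth, and the members and lists were chosen with earlier results of these data known. All 80 libraries entered 1 quasi-likelihood fit in edgeR 4.0.16 (R 4.3.3), with TMM scaling, its filter on low counts (21599 genes tested) and Benjamini-Hochberg adjustment over all of them at 0.05. The common biological coefficient of variation was 28.1%. Alternatives were limma 3.58.1, DESeq2 1.42.0, other scaling, no filter, a replicate block, fits without plate A, fits of the compared groups alone, and leaving out each of the 80 fish. The scripts were tested on simulated data.

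Genes were described by rank of fall at 2.68 mg/L: the first 10, the first 5 by control CPM and the first 3 by fall at 0.848 mg/L, 13 in all, with the first 2 named. No 2 libraries of a group agreed within sampling noise (lowest chi-square per degree of freedom 13.0 over 185 pairs). Same-numbered fish did not deviate together, so the numbers do not pair fish.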

Additional observations from a re-analysis of the deposited data

Results flagged for a closer look

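A single fish lay apart from the rest of its group in 9 of 108 sets of values, by a criterion that chance meets in about 1 of 20 groups. At 2.68 mg/L of 6PPD, replicate 4 had 6.09 CPM of FMg007996, against 1.60 to 2.22 in the other 4 fish. At 0.848 mg/L of 6PPD, replicate 1 had a median over the 77 genes of -0.93, the others -0.57 to -0.43, and 218 CPM of the gene of rank 15, the others 339 to 401. At 0.277 mg/L of 6PPD-Q, replicate 2 had a median of the 25 genes that vary together of -0.73, the others -0.14 to 0.03. At 0.878 mg/L of 6PPD-Q, replicate 5 had a median of the 52 other genes of -0.47, the others -0.14 to -0.01. At 2.77 mg/L of 6PPD-Q, replicate 3 had a median over the 77 genes of 0.039, the others -0.18 to -0.12. In controls, replicate 6 had a median of the 25 genes of 0.45 (others -0.20 to 0.12), replicate 1 had 362 CPM of the gene of rank 3 (others 213 to 280.2) and replicate 4 had 22.6 CPM of the gene of rank 6 (others 40.8 to 74.5).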

How the results depend on the processing

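Of the headline counts recomputed under other settings, 564 stayed within 1.5 times their main value and 22 did not. Among the other recomputed values 1658 were marked as the same and 10 as moved. No called value changed sign. The number of genes chosen was 77, and 51 with a limit of -0.5 at 0.848 mg/L of 6PPD; leaving out single fish gave 60 to 115. At 0.848 mg/L of 6PPD against controls the 12 called genes were 6 with a replicate block and 19 with these groups fitted alone, and 6 to 13 leaving out single fish. At 8.78 mg/L of 6PPD-Q against controls the 0 called by edgeR were 2 with limma and 4 with DESeq2, and 0 to 4 leaving out single fish (4 without replicate 2 and 3 without replicate 4 of that dose, 1 without control replicate 3 or 8). Leaving out single fish gave 0 to 1 called at 0.00878 mg/L of 6PPD-Q against controls and against 0.00848 mg/L of 6PPD (1 without replicate 2 of 6PPD-Q), and 0 to 1 at 0.0878 mg/L of 6PPD-Q against 0.0848 mg/L of 6PPD (1 without replicate 1 of 6PPD-Q). At 0.878 mg/L of 6PPD-Q against 0.848 mg/L of 6PPD, 5 became 3 with these groups alone and 3 to 5 leaving out single fish (3 without replicate 1, 2 or 5 of 6PPD or 4 or 5 of 6PPD-Q). At 2.68 against 0.848 mg/L of 6PPD, 50 became 33 without plate A, 23 with these groups alone and 33 to 52 leaving out single fish. From these groups the libraries read as plate A include only replicate 1 at 2.68 mg/L, and leaving out that fish also gave 33. The 33 without plate A is therefore no separate check. The cause of these changes was not tested. The replicate numbers were treated as a number only: over 525 same-numbered pairs the mean correlation of deviations was 0.0004, which cannot exclude a pairing. With settings chosen after seeing the data, the group of 25 genes held 15 at a linkage distance of 0.5, and its mean correlation was 0.40 without its 3 lowest fish. Depth limits the values of the genes of ranks 2, 4 and 5, with 3 to 23, 3 to 17 and 7 to 28 counts per fish at 2.68 mg/L of 6PPD.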

Other observations

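Among the 77 genes, 3 pairs have identifiers at most 2 apart, of which 1 pair is consecutive. Whether near identifiers are near in the genome was not examined, since no annotation of these identifiers was used. Over the 55 fish outside the choice, the deviations from group means had a correlation of 0.44 for the genes of ranks 14 and 12, whose identifiers are consecutive. It was 0.58 for the genes of ranks 35 and 21 and -0.29 for those of ranks 22 and 76. The gene of rank 12 differs from most of the 77 at the lower doses: its mean was above that of controls by 0.26 to 0.81 on the log2(CPM + 1) scale at all 11 of them.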
